A study of Mus musculus with 12 samples.

Results

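The subunits of oxidative phosphorylation were examined in RNA of sorted glomerular cells. Members were the genes of the deposited dim and bright tables that carry a subunit or assembly name of complexes I to V (Nduf, Sdha to Sdhd, Uqcr, Cox4 to Cox8, Cyc1, Cycs, Atp5 and the mt- names) and the transcript type protein_coding. This gave 91 of the 19564 genes listed in either table, 90 in the dim table, 88 in the bright table and 87 in both. The nuclear genome encodes 78 of them and the mitochondrial genome 13. Complex I held 4 nuclear core subunits, 27 accessory subunits, 7 assembly factors and 7 mt subunits. Complex II held 4 members, complex III 8 nuclear members and mt-Cytb, and cytochrome c was represented by Cycs. Complex IV held 13 nuclear subunits, the supercomplex factor Cox7a2l and 3 mt subunits, and complex V 12 nuclear subunits, the factor B gene Atp5s and 2 mt subunits. The choice by transcript type left out 13 protein-coding genes with a matching name, among them Cox5a, Ndufs1 and Atp5h.

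Oxidative phosphorylation is the last step of respiration in the inner mitochondrial membrane. Complexes I and II pass electrons to ubiquinone, complex III passes them to cytochrome c and complex IV to oxygen, and complex V, the ATP synthase, uses the proton gradient built by complexes I, III and IV to make ATP. Complexes I, III, IV and V join subunits encoded in the nucleus with a few encoded in mitochondrial DNA, whereas complex II is encoded in the nucleus alone. In the kidney, proximal tubule cells are rich in mitochondria, while endothelial cells are known to draw much of their ATP from glycolysis.

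RNA was sequenced from 12 libraries of 6 mice at 4 months of age, 3 wild type (WT) and 3 Alport syndrome (AS) mice, all C57BL/6 with the reporter TekCre tdTomato. The AS mice carried the genotype Col4a5 -/-, which removes the type IV collagen chain whose loss causes X-linked Alport syndrome, a hereditary glomerular disease. Cells of digested glomeruli were sorted by tdTomato brightness into a dim and a bright subpopulation of each mouse, giving the groups WT-dim, AS-dim, WT-bright and AS-bright with 3 libraries each. The reporter is switched on by Cre under the Tek promoter, which is active in endothelium and in part of the blood lineage.

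Libraries held 11440169 to 15074909 counts on genes. The labelled cell type, glomerular endothelial cells, was checked against markers, and in the dim libraries leukocyte markers outweighed endothelial ones. The tested endothelial markers (Pecam1, Cdh5, Tek and the like) summed to 11850 to 19096 CPM (counts per M counts, after TMM scaling) in the bright libraries and to 228 to 1392 CPM in the dim libraries. The leukocyte markers (Ptprc, Cd74, Cd79a and the like, 9 tested in the bright and 19 in the dim libraries) summed to 59.3 to 164 CPM in the bright and to 10028 to 21294 CPM in the dim libraries, so the groups are called by their sort gate here. Markers of the proximal tubule also differed between libraries, and their values stand beside the comparisons. In such bulk RNA, fewer cells of a type and less RNA per cell cannot be told apart.

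Summed over 66 nuclear-encoded subunits tested with all 12 libraries, the level in the WT-dim libraries was 9810, 6530 and 6760 CPM. It was 3710, 4140 and 4250 CPM in the AS-dim, 6890, 3400 and 5120 CPM in the WT-bright and 5040, 4050 and 3900 CPM in the AS-bright libraries. The WT-dim libraries lay above all AS-dim and AS-bright libraries, and the first WT-bright library lay within the range of the WT-dim libraries. Summed over 12 mt-encoded subunits, the level was 27900, 19800 and 18700 CPM in the WT-dim, 4210, 12000 and 3990 CPM in the AS-dim, 8890, 3920 and 4870 CPM in the WT-bright and 3140, 5850 and 3000 CPM in the AS-bright libraries. Here all WT-dim libraries stood above the other 9, and in each of the AS groups the library of the second mouse stood high. The mt sum divided by the nuclear sum was 2.76 to 3.04 in the WT-dim and 0.951 to 1.29 in the WT-bright libraries. In the AS groups it was 2.91 in the dim and 1.45 in the bright library of the second mouse, against 0.94 to 1.13 in the other AS-dim and 0.623 to 0.769 in the other AS-bright libraries.

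**Figure D1:**
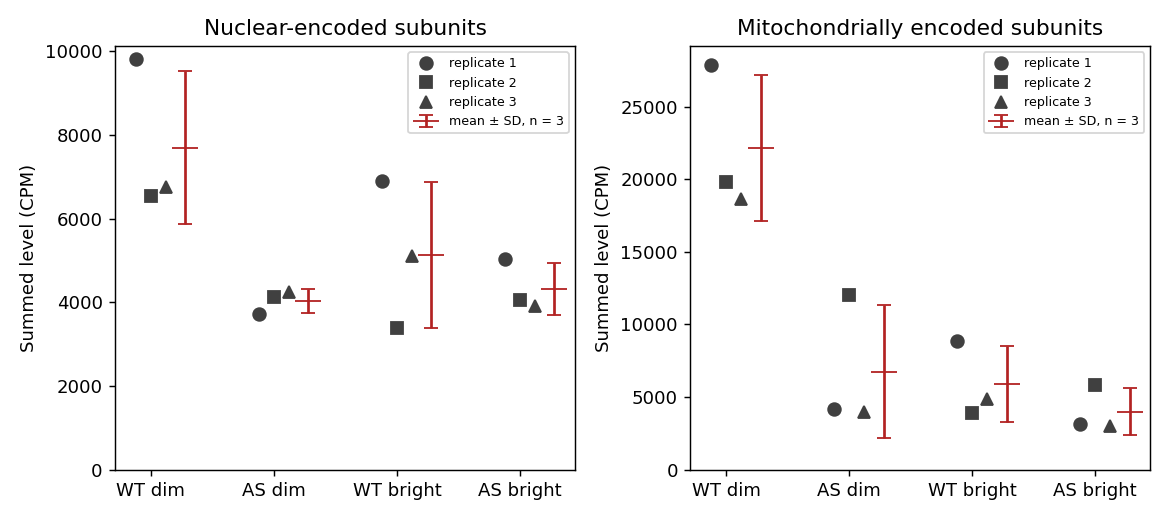
Summed level in CPM of nuclear-encoded and of mt-encoded subunits in each of the 12 libraries, by group, with 1 point per library. The 3 WT-dim libraries (18700 to 27900 CPM) lie above all others for the mt-encoded subunits, and for these the second AS mouse lies highest within both AS groups.

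Levels between genes were compared per kb of annotated exon sequence. In the WT-dim group mt-Co1, which encodes the catalytic core of complex IV, had the highest level, 8660 ± 1590 CPM per kb (SD, n = 3). It was followed by mt-Cytb of complex III at 2597 ± 836, mt-Nd1 of complex I at 2250 ± 746 and mt-Nd4 at 1624 ± 408 CPM per kb, neighbours whose ranges overlap. The highest nuclear-encoded subunits were Cox4i1, the ubiquitous isoform of complex IV subunit 4, at 691 ± 167 CPM per kb and Ndufb11 of complex I at 506 ± 144 CPM per kb. In the AS-bright group mt-Co1 was again first at 1975 ± 573 CPM per kb and Cox4i1, mt-Nd1 and mt-Cytb were at 340 ± 109, 283 ± 164 and 258 ± 234 CPM per kb, with ranges that overlap, so they are not ordered among themselves. Ndufb11, at 316, 151 and 272 CPM on 908 exon bases, is not ordered against them either.

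The mt genes differ in how well these counts can measure them, since reads that match several places were not counted. The share of 150-base windows of each transcript that also occurs in another annotated gene, mostly nuclear pseudogenes of mitochondrial DNA, was 99.8% for mt-Co3, 99.4% for mt-Co2 and mt-Atp6, 98.0% for mt-Nd4l and 97.0% for mt-Nd3. It was 59.2% for mt-Nd4 and 23.6% for mt-Co1, and no window of mt-Nd1 (mitochondrial genome, bases 2751 to 3707 in GRCm38), mt-Nd2, mt-Nd5, mt-Nd6, mt-Atp8 or mt-Cytb (bases 14145 to 15288) was shared. Levels of the first 5 are therefore uncertain, and to a lesser degree those of mt-Nd4 and mt-Co1. Of the 78 nuclear members 19 had any shared window, at most 33.1%, in Atp5g2.

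Comparison of AS with WT in the dim cells asked how the Col4a5 genotype goes with these genes in that sort gate. In the dim libraries 25 of the 85 members tested fell in AS and none rose, against 6.42% of all 14637 genes tested that fell and 2.21% that rose (edgeR's quasi-likelihood test, Benjamini-Hochberg adjusted p under 0.05). At an unadjusted p under 0.05, 63 members were lower and 0 higher, against 15.9% and 10.3% of all genes. Of the 25, 18 were nuclear-encoded subunits, 1 was the assembly factor gene Ndufaf3 and 6 were mt-encoded. All 3 AS libraries lay below all 3 WT libraries for 60 of the 85, against 16.2% of all genes. The median log2 fold change was -0.96 for the 65 nuclear-encoded subunits tested and -1.88 for the 12 mt-encoded ones, beside -0.02 for all genes.

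Among complex I members, 5 of 31 nuclear-encoded subunits fell, namely Ndufs8 and Ndufv2 of the core and the accessory subunits Ndufa8, Ndufa12 and Ndufb11. Ndufs8 encodes an iron-sulfur subunit of the arm that leads electrons to ubiquinone (chromosome 19, 3908863 to 3912774, minus strand, GRCm38). Its level was 90.1, 79.7 and 88.9 CPM in the WT-dim and 31.2, 34.8 and 38.9 CPM in the AS-dim libraries. The groups did not overlap, and the log2 fold change was -1.30 (SE 0.20, adjusted p = 0.0199 by edgeR's quasi-likelihood test). The accessory subunit Ndufa8 had 279, 172 and 179 CPM in the WT-dim and 50.7, 84.7 and 62.1 CPM in the AS-dim libraries, a log2 fold change of -1.68 (SE 0.28, edgeR adjusted p = 0.0206). Ndufa7 had the lowest log2 fold change of the nuclear members, -1.97, but its WT levels of 152, 38.2 and 18.5 CPM overlapped the AS levels of 12.1, 32.0 and 9.29 CPM and the adjusted p by edgeR was 0.154. The smallest difference among the complex I subunits was that of Ndufab1, the mitochondrial acyl carrier protein, at -0.24 (edgeR adjusted p = 0.806), also with overlapping groups.

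All 4 complex II members had AS levels below every WT level, and Sdhc and Sdhd, which encode the membrane anchors of the complex, passed the test. Sdhd (chromosome 9, 50596357 to 50603812, minus strand) was at 105, 119 and 102 CPM in the WT-dim and at 38.2, 41.0 and 58.9 CPM in the AS-dim libraries, a log2 fold change of -1.24 (SE 0.23, edgeR adjusted p = 0.0241). Sdhc had a log2 fold change of -1.36 (SE 0.29, edgeR adjusted p = 0.032), from 304, 205 and 142 CPM to 73.7, 101 and 78.7 CPM. Sdha, the flavoprotein that oxidizes succinate, was at 239, 214 and 197 CPM in the WT-dim and at 134, 162 and 141 CPM in the AS-dim libraries, and its log2 fold change of -0.57 did not pass (edgeR adjusted p = 0.0806).

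In complex III, 3 of 8 nuclear-encoded subunits fell. The largest change was in Uqcrq, a small subunit of the complex (chromosome 11, 53427922 to 53430831, minus strand). It had 150, 84.9 and 104 CPM in the WT-dim and 28.002, 27.8 and 39.9 CPM in the AS-dim libraries, with a log2 fold change of -1.82 (SE 0.28, edgeR adjusted p = 0.0199). The others that fell were the core protein gene Uqcrc2 at -1.11 and Uqcrh, a hinge protein for cytochrome c1, at -0.96. Uqcrc1, the partner of Uqcrc2, had overlapping groups and a log2 fold change of -0.18 (edgeR adjusted p = 0.794). Cycs, the electron carrier cytochrome c itself, was at 67.1, 42.9 and 46.1 CPM in the WT-dim and 20.1, 26.4 and 34.0 CPM in the AS-dim libraries. These groups did not overlap, but the log2 fold change of -0.96 did not pass (edgeR adjusted p = 0.0815).

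In complex IV, 4 of 9 nuclear-encoded subunits tested fell, Cox7a2, Ndufa4, Cox4i1 and Cox6b1. Cox7a2, the widely expressed isoform of subunit 7a (chromosome 9, 79755361 to 79759878, minus strand), had 117, 71.2 and 69.2 CPM in the WT-dim and 27.9, 30.3 and 27.9 CPM in the AS-dim libraries, a log2 fold change of -1.58 (SE 0.27, edgeR adjusted p = 0.0213). Ndufa4, first assigned to complex I and now counted with complex IV, had a log2 fold change of -1.75 (SE 0.32, edgeR adjusted p = 0.023), from 245, 143 and 106 CPM to 42.7, 53.8 and 50.4 CPM. Cox4i1 went from 1244, 771 and 1200.15 CPM to 508, 560 and 650.07 CPM without overlap, a log2 fold change of -0.90 (SE 0.22, edgeR adjusted p = 0.0424). Cox6b1 changed by -0.93 (edgeR adjusted p = 0.0442). Cox6a1 at -1.12 and Cox8a at -1.23 had groups that did not overlap and did not pass (edgeR adjusted p = 0.0599 and 0.077). The supercomplex factor Cox7a2l stood apart from these, with 80.5, 74.5 and 78.8 CPM in the WT-dim and 77.7, 78.6 and 104 CPM in the AS-dim libraries and a log2 fold change of 0.16 (edgeR adjusted p = 0.679).

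In complex V, 4 of 12 nuclear-encoded subunits fell, Atp5a1, which encodes the alpha subunit of the catalytic head, Atp5o of the stalk, and Atp5g1 and Atp5g3, which with Atp5g2 encode the same rotating c subunit. Atp5g3 (chromosome 2, 73908447 to 73911326, minus strand) was at 332, 234 and 199.6 CPM in the WT-dim and 84.8, 98.6 and 95.7 CPM in the AS-dim libraries, a log2 fold change of -1.46 (SE 0.23, edgeR adjusted p = 0.0199). Atp5g1 was at 78.1, 62.4 and 72.5 CPM against 20.0, 21.6 and 30.8 CPM, a log2 fold change of -1.56 (SE 0.25, edgeR adjusted p = 0.0206). Atp5g2 had a log2 fold change of -0.63 and did not pass (edgeR adjusted p = 0.198), although its AS levels of 32.5 to 35.4 CPM lay below its WT levels of 40.9 to 73.1 CPM.

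The 12 mt-encoded subunits tested all had AS-dim levels below every WT-dim level, and 6 passed the test, mt-Nd1, mt-Nd2, mt-Nd3 and mt-Nd4 of complex I and mt-Co1 and mt-Co3 of complex IV. mt-Co1 (mitochondrial genome, bases 5328 to 6872) was at 16399, 12319 and 11489.5 CPM in the WT-dim and at 2853, 7561 and 2744 CPM in the AS-dim libraries, a log2 fold change of -1.61 (SE 0.40, edgeR adjusted p = 0.0454). mt-Nd1, a membrane subunit of complex I, was at 3014, 1815 and 1650.15 CPM against 348, 1037 and 328 CPM, a log2 fold change of -1.92 (SE 0.47, edgeR adjusted p = 0.0442). In both genes the second AS library lay nearest to WT. mt-Cytb, the catalytic subunit of complex III, had 4130.19, 2459 and 2349 CPM against 377, 1392 and 335 CPM, and its log2 fold change of -2.09 (SE 0.55) was just outside the threshold (edgeR adjusted p = 0.0531). mt-Co3 had the lowest log2 fold change, -2.50 (edgeR adjusted p = 0.0403), on counts that shared windows make uncertain. mt-Nd5, mt-Nd6, mt-Co2, mt-Atp6 and mt-Nd4l had log2 fold changes of -1.55 to -1.84 and did not pass (edgeR adjusted p = 0.0546 to 0.136). mt-Nd3 passed the filter on low counts through its WT counts of 25 to 38 against 3 to 12 in AS, and mt-Nd4l likewise, with AS counts of 4, 25 and 8. Without these 2 genes 5 of 10 mt-encoded subunits passed, with a median of -1.88, and without them and Ndufc1, which also had fewer than 3 AS libraries at the filter's level, 24 of 82 members fell.

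**Figure D2:**
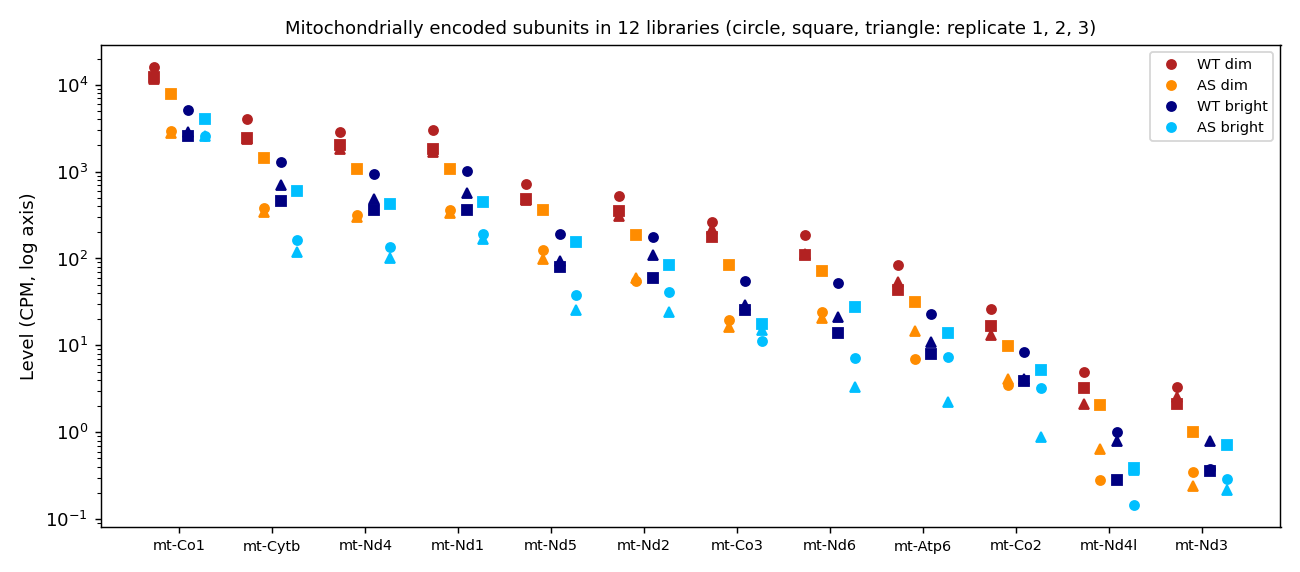
Level in CPM on a log axis of the 12 tested mt-encoded subunits in the 12 libraries, with 1 point per library, colours for groups and symbols for replicates. For every gene the 3 WT-dim points lie above the 3 AS-dim points, and the square of the second mouse is the highest AS-dim point.

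Markers of the proximal tubule moved with these genes in the dim libraries. The 18 markers (Lrp2, Slc34a1, Kap and the like) summed to 11103, 2344 and 2197 CPM in the WT-dim and to 60.3, 675 and 41.4 CPM in the AS-dim libraries. Of the 18, 8 fell and none rose, their median log2 fold change was -4.25, and at most 1 marker had no counts in a library. Endothelial markers fell in 9 of 13, with a median of -2.22, and 4 of 19 leukocyte markers rose, with a median of 0.45. With the mean log2 CPM of the tubule markers as a covariate, 0 of the 85 members passed, as against 1 of all genes, and the medians became -0.65 for the nuclear-encoded and -0.13 for the mt-encoded subunits, 10 of 12 of which stayed below 0. Since tubule level and genotype did not overlap in these 6 libraries, their parts cannot be told apart. The count also rested on single libraries, as it was 0 without the first or without the third AS-dim library (0 and 1 of all genes passed then), 14 without the second AS-dim library, 13 without the first WT-dim library and 9 without the second library of both groups. Of all genes 435 of 15400, 673 of 15316 and 262 of 14876 fell in these 3 settings. Without the second or without the third WT-dim library 17 and 28 members fell, with 679 of 15282 and 1373 of 15353 genes. Across the fits without 1 library the median was -1.16 to -0.75 for the nuclear-encoded and -2.80 to -1.58 for the mt-encoded subunits.

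**Figure D3:**
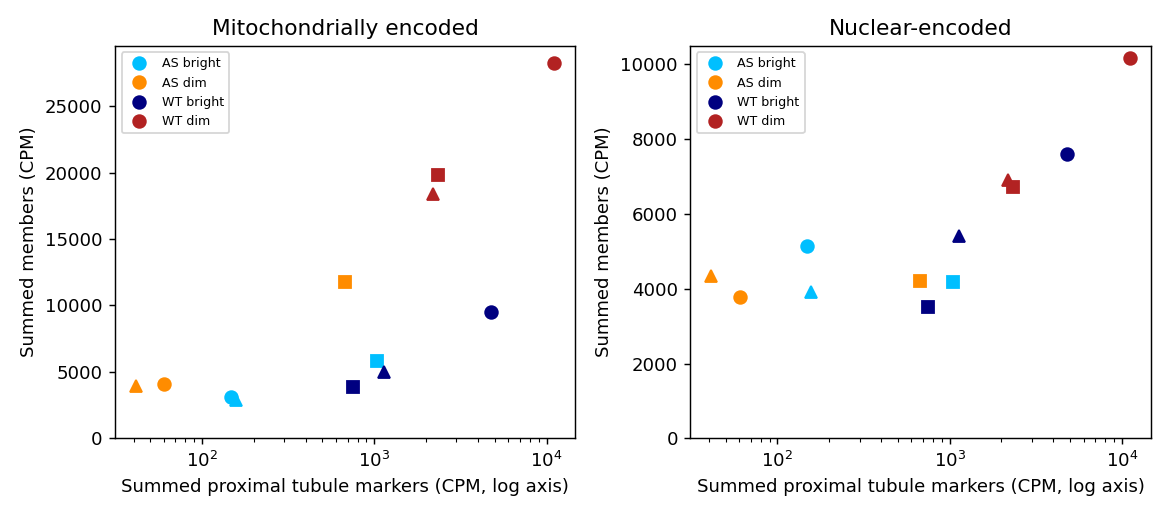
Summed level of mt-encoded members (left) and of nuclear-encoded members (right) against the summed level of 18 proximal tubule markers, with 1 point for each of the 12 libraries. All values are in CPM, the markers on a log axis and the members on a linear axis. In the left panel, of the AS libraries, those of the second mouse lie highest on both axes in the dim (675 CPM of tubule markers) and in the bright cells (1042 CPM).

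The promoters of the nuclear-encoded members were searched for motifs, which the choice by name did not use. Of the 78, 66 had an entry among the RefSeq promoters (GRCm38.p6, 250 bases before to 50 after the start). On both strands, the palindromic motif of nuclear respiratory factor NRF1, whose match stands in capitals in the Sdhd promoter, was found in 17 of the 66 (25.8%), against 5.2% of 27025 genes. These are all genes with an entry, expressed here or not, and a gene counts if any of its promoters holds a match. The ETS motif CCGGAAG was in 14 (21.2%, against 9.9%), the YY1 motif AAGATGGCG in 8 (12.1%, against 1.6%) and TCAAGGTCA, the estrogen-related receptor motif named ESRRA, in 2 (3.0%, against 0.5%). The 4 motifs were searched without excluding overlaps, and 33 of 66 held any of them, against 15.5% of all. A match is a description of the letters and not of binding. To show where such motifs stand, 100 bases are given that end before the start lying farther upstream in RefSeq or in Gencode, for the nuclear-encoded subunit of each complex with the lowest adjusted p in the dim comparison among those with an entry, read 5′ to 3′ on the gene's strand, all minus, with motif matches in capitals. The Gencode start was the farther one for Uqcrh by 1 base and for Cox7a2 by 25 bases, and the RefSeq start for Sdhd by 37 bases. The genes are Ndufs8 (complex I, chr19:3912775-3912874), Sdhd (complex II, chr9:50603850-50603949, NRF1 and ETS), Uqcrh (complex III, chr4:116075072-116075171, ETS), Cox7a2 (complex IV, chr9:79759879-79759978) and Atp5g3 (complex V, chr2:73911327-73911426, ESRRA).
Ndufs8: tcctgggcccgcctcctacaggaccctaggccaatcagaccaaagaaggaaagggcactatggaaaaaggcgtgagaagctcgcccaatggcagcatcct
Sdhd: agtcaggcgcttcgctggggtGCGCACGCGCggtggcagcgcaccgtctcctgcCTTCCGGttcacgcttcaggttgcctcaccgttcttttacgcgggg
Uqcrh: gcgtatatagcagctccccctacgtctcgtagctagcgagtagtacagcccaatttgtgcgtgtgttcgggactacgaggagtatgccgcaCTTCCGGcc
Cox7a2: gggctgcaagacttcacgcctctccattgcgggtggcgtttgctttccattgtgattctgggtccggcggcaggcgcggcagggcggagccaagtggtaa
Atp5g3: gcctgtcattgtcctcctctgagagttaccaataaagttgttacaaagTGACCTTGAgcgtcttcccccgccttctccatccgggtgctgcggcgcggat
The stretches of Sdhd, Uqcrh and Atp5g3 hold a match and those of Ndufs8 and Cox7a2 hold none. In the longer RefSeq promoters used for the counts, Ndufs8 also holds the ETS, Sdhd the ESRRA and Atp5g3 the NRF1 motif, and Cox7a2 holds none of the 4.

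Comparison of AS with WT in the bright cells posed the same question in the gate with endothelial markers. No member passed there, 0 of 84 tested against 0.452% of all 14396 genes in either direction (edgeR's quasi-likelihood test). At an unadjusted p under 0.05, 18 members were lower and 2 higher, against 11.9% and 9.98% of all genes. DESeq2 called 5 members and edgeR's likelihood ratio test 3, all lower, against 4.7% and 4.61% of all genes that these tools called lower. The median log2 fold change was -0.43 for the 66 nuclear-encoded and -1.27 for the 10 mt-encoded subunits tested, beside -0.03 for all genes. Of the 10 mt-encoded subunits 5 had an unadjusted p under 0.05.

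Ndufa2, an accessory subunit of complex I, came nearest to the threshold. It was at 107, 54.6 and 99.8 CPM in the WT-bright and 25.2, 35.3 and 24.3 CPM in the AS-bright libraries, groups that did not overlap, with a log2 fold change of -1.62 (SE 0.30, edgeR adjusted p = 0.0509). mt-Co3 was at 59.1, 25.4 and 29.7 CPM against 11.1, 17.7 and 14.5 CPM, a log2 fold change of -1.40 (SE 0.36, edgeR adjusted p = 0.081). It was the only mt-encoded member tested whose groups did not overlap. mt-Cytb had 1399, 456 and 726 CPM against 162, 599 and 113 CPM, so that the second AS library lay among the WT libraries, and a log2 fold change of -1.56 (SE 0.59, edgeR adjusted p = 0.163). mt-Co1 differed little, with 5486.5, 2539 and 2906 CPM in the WT-bright and 2496, 4044 and 2453 CPM in the AS-bright libraries and a log2 fold change of -0.28 (SE 0.34, edgeR adjusted p = 0.669). The other 7 mt-encoded subunits tested had log2 fold changes of -0.83 for mt-Nd5 to -1.51 for mt-Nd4, all with overlapping groups. mt-Nd3, with 3 to 12 counts a library, and mt-Nd4l, with 2 to 16, were too low to test.

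A few members were higher in the AS-bright libraries without passing. Uqcrc1 was at 48.4, 40.1 and 34.5 CPM in the WT-bright and 74.5, 55.4 and 60.9 CPM in the AS-bright libraries, which did not overlap, and its log2 fold change was 0.63 (SE 0.23, edgeR adjusted p = 0.16). Cox7a2l was at 60.7, 36.2 and 32.7 CPM against 95.3, 71.5 and 60.6 CPM, where the lowest AS library lay just under the highest WT library, with a log2 fold change of 0.81 (SE 0.29, edgeR adjusted p = 0.151). Cox4i1 at -0.32, Cox7a2 at -0.67, Ndufa4 at -0.95, Cycs at -1.01 and Atp5g3 at -0.76 all had overlapping groups, with edgeR adjusted p of 0.138 to 0.591.

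**Figure D4:**
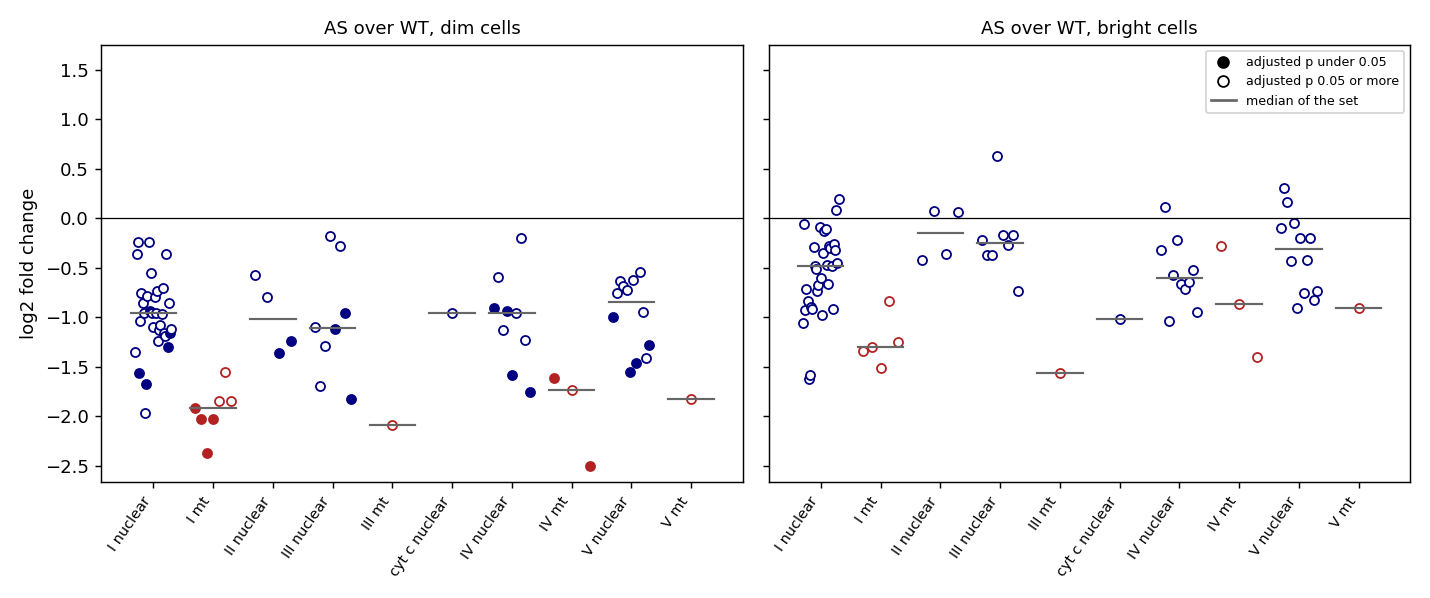
log2 fold change of AS over WT of each tested subunit by complex, in dim and in bright cells, with nuclear-encoded subunits in blue, mt-encoded subunits in red, filled points for an adjusted p under 0.05 and a grey line at the median of each set. In dim cells every subunit lies below 0 (median -0.96 nuclear and -1.88 mt). In bright cells the medians of the sets lie nearer to 0, except that of cytochrome c (-1.01 in bright and -0.96 in dim cells), and no point is filled.

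The tubule markers in the bright libraries summed to 4789, 750 and 1135 CPM in the WT-bright and to 148, 1042 and 157 CPM in the AS-bright libraries, with 0 of 18 past the threshold, a median log2 fold change of -2.39 and at most 1 marker without counts in a library. With the mean log2 CPM of these markers as a covariate the median of the mt-encoded subunits was 0.09, with 5 of 10 below 0, and that of the nuclear-encoded subunits -0.00037. Without the first WT-bright library the medians were -0.04 for nuclear-encoded and -0.50 for mt-encoded subunits, and without the second library of both groups 12 members were lower, 6 of them mt-encoded with a median of -2.24, while 488 of all 14445 genes were lower, against 38 of 14396 with every library. Leaving out 1 library gave 0 to 3 calls, with 3 without the second WT-bright or without the second AS-bright library, where 1.88% and 1.83% of all genes were called.

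Comparison of bright with dim cells within WT mice asked how the sort gates differ. Of the 86 members tested 13 were lower in the bright cells and 0 higher, against 11.5% of all 14247 genes that were lower and 13.8% that were higher (edgeR's quasi-likelihood test). These were the 12 mt-encoded subunits tested and Sdhd. mt-Nd3 and mt-Nd4l passed the filter on low counts through their WT-dim counts, and without them all 10 other mt-encoded subunits were lower, with a median of -1.86. The median log2 fold change was -1.95 for the mt-encoded and -0.57 for the 66 nuclear-encoded subunits, beside -0.04 for all genes. The nuclear median was -0.31 without the first WT-dim library and -0.87 without the first WT-bright library. These libraries of the WT mice are also those of the genotype comparisons.

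For all 12 mt-encoded subunits the 3 WT-bright levels lay below the 3 WT-dim levels, as for 19.7% of all genes. mt-Cytb was at 3958, 2473 and 2388 CPM in the dim and 1386, 458 and 724 CPM in the bright libraries of the 3 mice, a log2 fold change of -1.78 (SE 0.42, edgeR adjusted p = 0.0129). mt-Co1 was at 15714, 12389.9 and 11682 CPM against 5437, 2549.74 and 2898 CPM, a log2 fold change of -1.87 (SE 0.36, edgeR adjusted p = 0.00485). mt-Nd5, a membrane subunit of complex I, changed by -2.12 (edgeR adjusted p = 0.0033). The 12 ranged from -1.66 for mt-Nd1 to -2.53 for mt-Co3, with edgeR adjusted p of 0.00094 to 0.0307. Within each mouse every one of the 12 was lower in the bright library, with medians of -1.75, -2.47 and -1.81.

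Sdhd was at 100.2, 119 and 104 CPM in the WT-dim and 56.3, 32.7 and 37.1 CPM in the WT-bright libraries, a log2 fold change of -1.36 (SE 0.29, edgeR adjusted p = 0.0078). Its partner Sdhc, at 291, 206 and 145 CPM against 274, 122 and 194 CPM, had overlapping groups and a log2 fold change of -0.12 (edgeR adjusted p = 0.831). With the mouse as a block, 26 members were lower, against 15.1% of all genes, the same 12 mt-encoded genes and 14 nuclear members, among them Sdhd, Sdhb, Cox4i1, Uqcrh, Ndufb9, Cox7a2l and 6 of the 12 complex V subunits. The 18 tubule markers were not past the threshold here, their median log2 fold change was -1.32, and with their mean log2 CPM as a covariate 12 members were lower, 10 of them mt-encoded, and 1669 of all 14247 genes. Of the endothelial markers 13 of 14 rose, with a median of 3.67, and 13 of 13 leukocyte markers fell, with a median of -7.80, and their part was not tested. The count of members ranged from 6 without the third WT-bright library to 22 without the first WT-bright library, with 1074 of 14655 and 1482 of 14595 genes lower.

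Comparison of bright with dim cells within AS mice gave calls in both directions among the nuclear-encoded members. Of 85 members tested 11 were higher and 12 lower in the bright cells, against 28.6% and 26.5% of all 14052 genes (edgeR's quasi-likelihood test). The median log2 fold change of the 66 nuclear-encoded subunits was -0.03, which turned to 0.03 without the third AS-dim library and to 0.11 without the third AS-bright library. None of the 10 mt-encoded subunits tested passed, and their median was -1.21, which was -0.35 without the second AS-dim library and -1.83 without the second AS-bright library. The count was 12 in all without the first AS-bright library, with 45.6% of all genes called. All 14 endothelial markers rose here, with a median of 6.28, and all 13 leukocyte markers tested fell, with a median of -7.12, and their part was not tested.

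Higher in the AS-bright cells were 5 complex I subunits, Ndufa8, Ndufv1, Ndufa12, Ndufv3 and Ndufc2, with Sdhc, Cox4i2, Atp5b, Atp5s and the assembly factor genes Ndufaf3 and Ndufaf6. Ndufa8 was at 51.6, 86.4 and 63.0 CPM in the AS-dim and 168, 145 and 198 CPM in the AS-bright libraries, a log2 fold change of 1.34 (SE 0.22, edgeR adjusted p = 0.000599). Sdhc was at 74.9, 103 and 79.9 CPM against 165, 138 and 161.5 CPM, a log2 fold change of 0.85 (SE 0.18, edgeR adjusted p = 0.0029). Both had groups that did not overlap. Cox4i2, the isoform of subunit 4 known from lung and from hypoxic cells, rested on few reads, 0, 2 and 9 counts in the AS-dim against 41, 30 and 23 counts in the AS-bright libraries (log2 fold change 2.90, SE 0.73, edgeR adjusted p = 0.0055). It passed the filter on low counts through the bright libraries, and without it 10 members were higher. Ndufv1, the flavin-binding subunit that takes electrons from NADH, was at 19.1, 22.9 and 27.2 CPM against 46.6, 40.7 and 32.7 CPM, and Atp5b, the catalytic beta subunit of the ATP synthase, at 227, 229 and 236 CPM against 427, 331 and 294 CPM.

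Lower in the AS-bright cells were 6 complex I subunits (Ndufs7, Ndufa2, Ndufa3, Ndufa6, Ndufb2 and Ndufb5), Cox5b, Cox7b and Cox7c of complex IV, Atp5e of complex V and the assembly factor genes Ndufaf1 and Ndufaf7. Ndufaf7, a methyltransferase that modifies a core subunit of complex I, had the lowest adjusted p. It was at 31.6, 31.0 and 33.8 CPM in the AS-dim and 11.03, 11.14 and 10.72 CPM in the AS-bright libraries, a log2 fold change of -1.55 (SE 0.21, edgeR adjusted p = 0.000148). Cox5b was at 135, 149 and 166 CPM against 96.1, 85.2 and 66.5 CPM, a log2 fold change of -0.86 (SE 0.19, edgeR adjusted p = 0.0033). No complex III subunit passed, and 6 of 8 of them were above 0 with a median of 0.42. Members of 1 complex moved in opposite directions, as Ndufa8 at 1.34 and Ndufb2 at -1.35 in complex I.

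The mt-encoded subunits of AS mice depended on whether the mouse entered the fit. mt-Cytb was at 383, 1420.28 and 340 CPM in the dim and 162, 602 and 115 CPM in the bright libraries of the 3 mice, so that the groups overlapped while each mouse was lower in its bright library. Its log2 fold change was -1.28 (SE 0.67, edgeR adjusted p = 0.131) without and -1.35 (SE 0.19, edgeR adjusted p = 0.000121) with the mouse as a block. With the block 8 of the 10 mt-encoded subunits passed, all but mt-Co1 and mt-Co2, and 10 members were higher and 19 lower in all, against 28.5% and 26.7% of all genes with the block. Within the mice, 9, 10 and 10 of these 10 mt-encoded subunits were lower in the bright library, with medians of -0.85, -1.23 and -1.54. Of the 66 nuclear-encoded subunits 27, 31 and 46 were lower in the bright library of the AS mice, and 60, 63 and 49 in the WT mice. With the mean log2 CPM of the tubule markers as a covariate all 10 mt-encoded subunits passed as lower, with 3862 of all 14052 genes lower. Tubule markers in these libraries had 1 of 16 higher in bright and a median of 0.56.

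**Figure D5:**
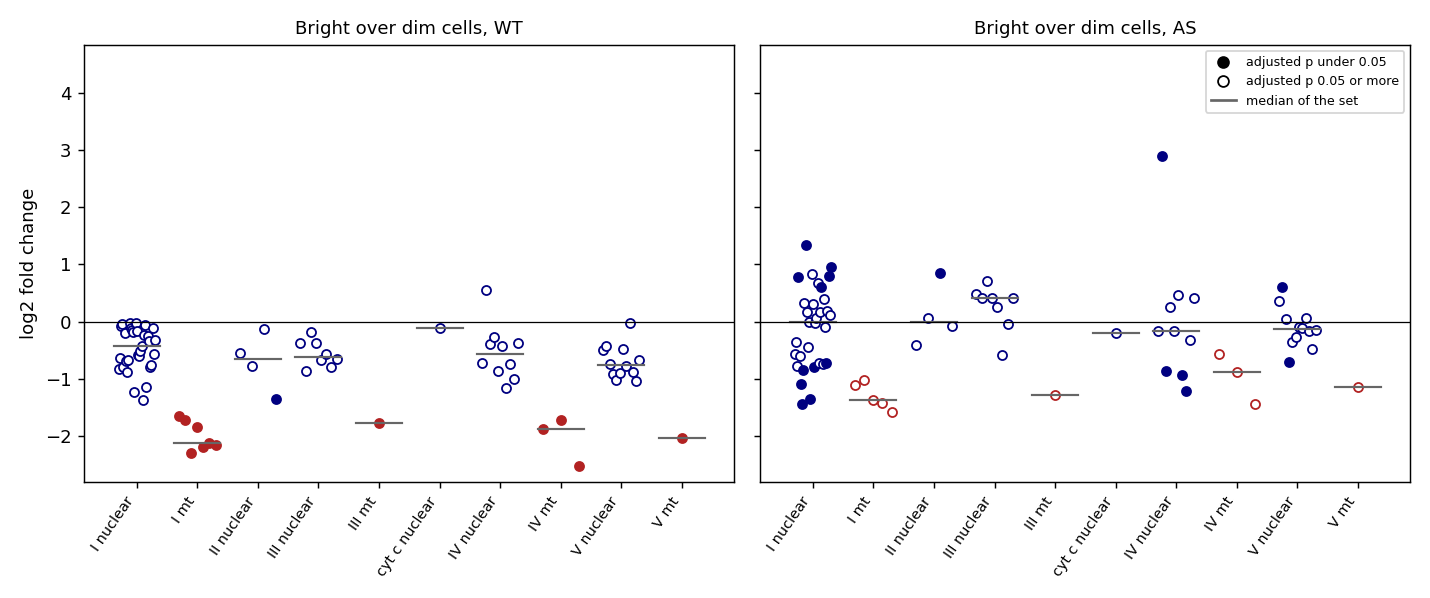
log2 fold change of bright over dim cells of each tested subunit by complex, in WT and in AS mice, with nuclear-encoded subunits in blue, mt-encoded subunits in red, filled points for an adjusted p under 0.05 without a block and a grey line at the median of each set. All 12 mt-encoded points of WT are filled and lie below -1.6, and in AS the nuclear-encoded points lie on both sides of 0 (median -0.03).

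Whether the genotype difference itself differed between the gates was tested as the interaction in all 12 libraries. No member passed, 0 of 87 against 3.77% of all 15084 genes (edgeR's quasi-likelihood test), and DESeq2 called 2 and edgeR's likelihood ratio test 0, against 8.05% and 7.24% of all genes by these tools. At an unadjusted p under 0.05, 16 were on the higher and 0 on the lower side, against 11.5% and 6.95% of all genes. The log2 difference, AS over WT in bright minus AS over WT in dim cells, had a median of 0.70 over the 66 nuclear-encoded and of 0.76 over the 12 mt-encoded subunits, beside 0.13 for all genes. With library sizes in place of TMM the all-gene median was -0.03 and the medians were 0.54 and 0.64. The lowest adjusted p was that of Sdhd, with a log2 difference of 1.34 (SE 0.37, edgeR adjusted p = 0.0619). With the mouse as a block, mt-Co1 at 1.57, Ndufa8 at 1.48 and Atp5b at 1.07 passed (edgeR adjusted p = 0.0142, 0.0476 and 0.0442), 3 of 87 against 5.81% of all genes with the block. Without the second AS-bright library the median of the mt-encoded subunits was 0.05 and 5 of the 12 were below 0, and without the second AS-dim library it was 1.43. Without the first WT-bright library 2 members passed, and without the second AS-dim library 1, with 4.09% and 2.68% of all genes. The 18 tubule markers moved the same way, all above 0 with a median log2 difference of 1.89 and none past the threshold. With their mean log2 CPM as a covariate, a fit added after seeing the data, 0 of 87 members and 3.56% of all genes passed, and the medians were 0.51 for the nuclear-encoded and 0.05 for the mt-encoded subunits, 6 of 12 of which were below 0.

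Isoforms with restricted expression were near the limit of detection. In the dim libraries Cox6b2, known from testis, drew 17, 4 and 7 reads in the WT mice, against 1, 2 and 0 in the AS mice. Cox6a2, the muscle isoform, drew 7, 11 and 0 against 3, 4 and 1 reads, and Cox4i2 33, 15 and 0 against 0, 2 and 9. mt-Atp8, a short subunit of complex V, drew 12, 4 and 5 reads in WT-dim against 1, 0 and 3 in AS-dim libraries. In the bright libraries Cox7a1, the isoform of heart and muscle, drew 43, 9 and 4 reads in the WT-bright libraries, against 2, 5 and 1 in the AS-bright. These counts were too low for the filter and were not tested. Their ubiquitous partners Cox6a1, Cox6b1, Cox4i1 and Cox7a2 were found in every library, the lowest level being 11.2 CPM, of Cox6a1 in the second WT-bright library.

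Other genes of the pathway were taken from lists of assembly factors, of genes that copy and express mitochondrial DNA, and of the tricarboxylic acid (TCA) cycle. In the dim comparison of AS with WT, 2 of 41 assembly factors fell, Ndufaf3 (-1.91) and Sdhaf4 (-1.79), 0 of 28 genes of mitochondrial DNA expression passed, and 4 of 18 TCA cycle genes fell, led by Idh2 (-2.29) and Suclg2 (-2.23), with no rise in any list, against 6.42% of all genes that fell. The median log2 fold changes were -0.37, -0.30 and -0.66. In the bright comparison 0 passed in each list, with medians of -0.30, -0.34 and -0.10, and all genes had -0.03. Between bright and dim cells of WT mice, Cox17, a copper chaperone for complex IV, was the 1 assembly factor that fell (-5.24), Polg, the mitochondrial DNA polymerase, rose by a log2 fold change of 1.58 among 2 genes of mitochondrial DNA expression that rose, with 1, Supv3l1, that fell (-1.16), and Dlst fell in the TCA cycle (-0.79). In AS mice 8 of 43 assembly factors rose and 9 fell, 0 of 28 genes of mitochondrial DNA expression rose and 7 fell, and 5 of 18 TCA cycle genes rose and 2 fell. In neither genotype was the share of a list that rose or fell above that of all genes, 13.8% and 11.5% in WT and 28.6% and 26.5% in AS mice. In the interaction the TCA cycle gene Idh2 passed, and no gene of the assembly factors or of mitochondrial DNA expression did, against 3.77% of all genes.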

How the data were processed

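RNA of sorted dim and bright cells was measured in 12 libraries of 6 mice. The authors aligned reads with STAR (2.6.0c per the labels) to GRCm38.p5 with Gencode M16 and deposited raw gene counts in a table for each subpopulation, with ERCC spike-ins, which were left out here. Reads that matched several places were not counted. The paper names a stranded library kit. The strand setting used in counting is not given in the sources used here, and 41 of 91 members overlap another annotated gene. The deposited RPKM values, and the authors' log2 fold changes and log2 CPM, score (likelihood ratio), p-values and FDR for AS over WT, were not used.

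Counts were tested with edgeR 4.0.16 in R 4.3.3 (TMM, filterByExpr, quasi-likelihood test, two-sided), p adjusted by Benjamini-Hochberg across every gene in the fit, at a threshold of 0.05. AS over WT used the 6 libraries of 1 table, and bright over dim used the genes in both tables of 1 genotype. These 4 comparisons share libraries. With 3 libraries a group, an exact permutation test cannot go below p = 0.1, so none was used. CPM used TMM library sizes, and levels per kb the exons of Gencode M21, since for 17687 of 19530 genes with an ID there the deposited length was the sum over all transcripts, and for the others it was not. DESeq2 1.42.0 and other settings were alternatives. No 2 replicates agreed within sampling noise (chi-square of 29.5 to 104 per degree of freedom). The dim and bright libraries of 1 mouse carry its number in the labels, so bright and dim are paired, and their deviations correlated by 0.0974 to 0.288 in WT and 0.043 to 0.311 in AS mice. The study calls the libraries of a group biological replicates, from sex-matched mice.

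Members and lists were chosen with earlier results of these data known. Named genes are, for each complex, the member with the lowest adjusted p and those with the highest and lowest fold change, all mt-encoded members, the alternative isoforms and the 2 leading genes of each list. Other members are named where the calls are listed. The values of 1 gene that this rule or a test would name are not reported here.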

Additional observations from a re-analysis of the deposited data

Results flagged for a closer look

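The difference between AS over WT in bright and in dim cells passed edgeR's quasi-likelihood test for Idh2, the TCA cycle list's mitochondrial isocitrate dehydrogenase that uses NADP. It had a log2 difference of 1.81 (SE 0.43, edgeR adjusted p = 0.0343), with AS over WT at -2.29 in dim and -0.53 in bright cells. Of all genes 3.77% passed this test. Among the 87 members, 3 passed this test once the mouse was a block, against 5.81% of all genes. mt-Co1 had a log2 difference of 1.57 with the block and 1.38 without it (edgeR adjusted p = 0.201 without), with AS over WT at -1.61 in dim and -0.28 in bright cells. Ndufa8 had 1.48 with and 1.43 without the block (edgeR adjusted p = 0.0737 without), with -1.68 in dim and -0.29 in bright cells. Atp5b had 1.07 with and 1.11 without the block (edgeR adjusted p = 0.146 without), with -0.76 in dim and 0.31 in bright cells. Of these 4 genes, Idh2, Ndufa8 and mt-Co1 passed for AS over WT in dim cells, and none passed in bright cells. With the tubule covariate, added after seeing the data and fitted without the block, the log2 differences were 1.59 for Idh2, 1.005 for mt-Co1, 1.32 for Ndufa8 and 0.95 for Atp5b (edgeR adjusted p = 0.0425, 0.066, 0.11 and 0.231).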

How the results depend on the processing

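For AS over WT in dim cells, 25 members passed, 45 with DESeq2, 15 with every gene that had a count, 13 with edgeR's legacy quasi-likelihood fit, 0 with the tubule covariate, 9 without the second library of both groups and 0 to 28 without 1 library. The share of all genes called moved too, from 8.63% to 15.2% with DESeq2, 5.41% with every gene, 3.98% with the legacy fit and 1.8% without the second library of both groups. Where 28 members passed, without the third WT-dim library, it was 11.9%. The tubule covariate gave medians of -0.65 (nuclear) and -0.13 (mt), and the mt median was -2.90 without the second library of both groups and -2.80 to -1.58 without 1 library. In bright cells, against 0 members, 1 passed with RLE size factors, 1 with mt genes left out, 5 with DESeq2, 3 with the likelihood ratio test, 12 without the second library of both groups and 0 to 3 without 1 library. Of all genes 0.452% were called in the main fit, 0.521% with RLE size factors and 0.522% with mt genes left out. The share was 7.82% with DESeq2, 6.23% with the likelihood ratio test and 4.69% without the second library of both groups. The mt median there turned to 0.092 with the tubule covariate and was -2.24 without the second library of both groups. For bright over dim, 13 members in WT became 2 with mt genes left out, which removes the 12 mt-encoded ones, and 6 to 22 without 1 library, and 23 in AS became 12 to 30, with a nuclear median of -0.19 to 0.11. Of all genes 25.3% were called in the main fit of WT, 25.1% with mt genes left out, 17.3% where 6 members passed and 22.3% where 22 did. In AS the share was 55.1% in the main fit, 45.6% where 12 members passed and 52.2% where 30 did. In the interaction 2 passed with DESeq2 and 0 to 2 without 1 library, against 8.05% of all genes with DESeq2 and 4.09% without the first WT-bright library, where 2 members passed. The cause of the other changes was not tested. The legacy fit, the tubule covariate in the interaction and the fits without the second library of both groups were chosen after seeing the data, as was the inclusion of the 13 genes of other transcript types, with which 29 members passed in dim cells. Of all genes 8.63% were called there.

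The replicate block, AS and WT sharing only a number, gave 9 members in dim and 0 in bright cells, against 3.38% and 0.111% of all genes called. Same-numbered libraries correlated by -0.155 to 0.129, and not every library correlated best with its own number. Blocking by mouse gave 26 members in WT, 29 in AS and 3 in the interaction, against 31.2%, 55.2% and 5.81% of all genes called.

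Of 2659 values of single genes under these settings, 97 changed sign, none of them with a call on either side. Genes with few counts, such as Cox4i2 and Cox6b2, have values that rest on few reads at this depth.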

Other observations

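The part of mt-Co1 in the mt-encoded reads differed between the groups. It made up 80.9%, 69.6% and 84.7% of the counts on mt members in the AS-bright libraries, 57.6%, 65.2% and 58.2% in the WT-bright, 69.4%, 64.2% and 70.3% in the AS-dim and 58.0%, 62.1% and 62.3% in the WT-dim libraries. In both gates the AS shares lay above the WT shares of that gate without overlap, the AS-bright and AS-dim shares overlapped, and no test was run on them. They are shares of the reads that were counted, and the mt genes differ in their shared windows, 23.6% for mt-Co1.

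The ribosomal RNA gene mt-Rnr2, which is no member, held 7.26% to 10.7% of counts in the WT-dim, 3.15% to 6.98% in the AS-dim, 2.09% to 4.62% in the WT-bright and 2.54% to 5.24% in the AS-bright libraries. The WT and AS ranges did not overlap in the dim and overlapped in the bright cells.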
